A study of Bos taurus and other sequences with 9 samples.

Results

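The loci described here are the human tRNA genes for glutamic acid, glutamine and lysine (tRNA-Glu, tRNA-Gln and tRNA-Lys) to which small RNA reads from cell culture media were assigned. They were chosen by name, as tRNA loci whose name carries Glu, Gln or Lys after the hyphen. The rule uses no measured value, but it was set with earlier results of these data known. There were 79 such loci among 530 tRNA loci and 1361 loci of small ncRNAs other than miRNA. tRNA-Glu had 24 loci (12 with anticodon CTC and 12 with TTC), tRNA-Gln had 22 (16 CTG and 6 TTG) and tRNA-Lys had 33 (17 CTT and 16 TTT).

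Small ncRNA was sequenced from extracellular vesicle (EV) preparations of 9 media samples, 8 of them based on fetal bovine serum (FBS) in DMEM/F12. FBS-1 held serum from Sigma-Aldrich (Sigma) and FBS-2 serum from Gibco, each of a single lot. EV-depleted serum was made from these same sera by ultracentrifugation (UC-dFBS-1 from Sigma, UC-dFBS-2 from Gibco) or as the flow-through of an ultrafiltration membrane (UF-dFBS-1 and UF-dFBS-2). SBI-dFBS was commercial exosome-depleted FBS from System Biosciences in 2 lots that shared no serum with the rest, and StemPRO was a defined serum-free medium from Gibco with 1 sample. The 2 samples of a medium thus differ in serum, and their SD holds the difference between sera as well as that between preparations. The RNA is bovine in the 8 serum-based samples, while the loci are those of the human genome build GRCh37, so a locus stands for the human tRNA gene that a read matched, not for the gene that made it.

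A tRNA reads codons through its anticodon, written in gene names as 3 DNA letters. Glutamic acid, glutamine and lysine each have a pair of codons that differ only in whether the last base is A or G. Genes whose anticodon begins with T (TTC, TTG and TTT, together TTN) encode tRNAs with uridine at the wobble position, which is thiolated and methoxycarbonylmethylated in mammals and reads A-ending codons and, by wobble, G-ending codons. Genes whose anticodon begins with C (CTC, CTG and CTT, together CTN) encode tRNAs that read the G-ending codon. Fragments cut from tRNAs, mostly in or near the anticodon loop, circulate in mammalian serum, and those of tRNA-Glu and tRNA-Gly are known as common ones. The reads counted here were assigned to loci of 69 to 73 bases, and how long they were and which end of the tRNA they came from was not analysed here.

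Counts are numbers of reads collapsed by molecular index. A spike-in normalized count is the count divided by a factor that the authors fitted to external spike-ins in each sample. Per the paper, these spike-ins had the size of miRNAs. It holds the scaling to be likely less accurate for other small ncRNAs, mostly longer, than for miRNAs. Total small ncRNA counts lay between 6679 (StemPRO) and 6867736 (UF-dFBS-1), with 82513 for UF-dFBS-2, and 1 spike-in normalized count corresponded to 3.78 counts in SBI-dFBS-2 and up to 108 in StemPRO. The 79 loci held 2956 counts in UF-dFBS-2, 949 in StemPRO and between 132897 and 683529 in the other 7 samples. Of the 79, 37 had a count in all 9 samples and 20 stayed under 10 counts in every sample. As a background on the sera, the liver miRNA miR-122-5p was at 19403 and 4817 spike-in normalized counts in FBS-1 and FBS-2 and at 46.0 and 16.2 in UF-dFBS, the red cell miRNA miR-451a at 71.8 and 32.6 and at 0.109 and 0.0833, and the white cell and platelet miRNA miR-223-3p at 308 and 201 and at 0.489 and 0.624. Of the other red cell miRNAs, miR-486-5p was higher in FBS-2, at 126 in FBS-1 and 237 in FBS-2, and at 0.489 and 0.833 in UF-dFBS. miR-144-3p was at 12.8 and 3.76 in FBS-1 and FBS-2 and at 0.0 in both UF-dFBS samples. What part the sources of these miRNAs have in the tRNA values was not tested.

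The 3 isotypes ranked the same way in every serum-based sample, with tRNA-Glu on top, tRNA-Lys next and tRNA-Gln nearly absent. tRNA-Glu stood orders of magnitude above tRNA-Gln in each. The steps between neighbours were smaller in some, with 783 counts of tRNA-Lys and 106 of tRNA-Gln in FBS-2. UF-dFBS-1 had 354597 counts of tRNA-Glu and 34729 of tRNA-Lys. tRNA-Glu made up 95.7% ± 2.91 (SD, n = 8) of the counts of the 79 loci in the serum-based samples, tRNA-Lys 4.21% ± 2.86 and tRNA-Gln 0.0858% ± 0.149. The lowest share of tRNA-Glu among these samples was 91.1% and the highest share of tRNA-Lys was 8.92%, so the order held in each of the 8. Together the 79 loci took 11.3% ± 8.74 of all tRNA counts, against 40.6% ± 20.5 for tRNA-Gly, 7.45% ± 8.74 for tRNA-Val and 0.433% ± 0.440 for tRNA-Asp. The range was wide, from 3.68% to 29.7% of tRNA counts, with the highest share in FBS-2.

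**Figure D1:**
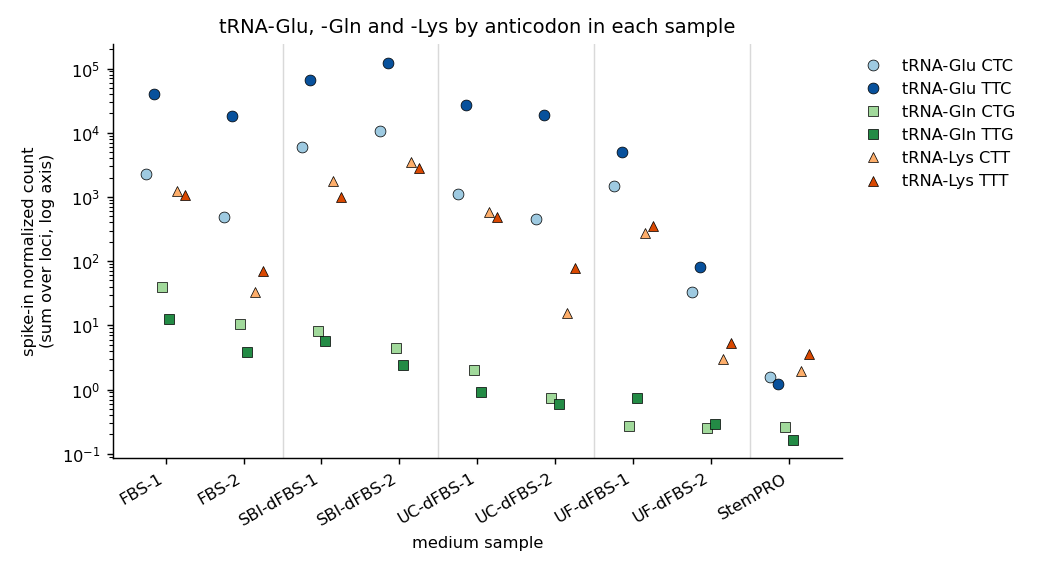
Summed spike-in normalized counts (log axis) of the 6 anticodon families in each of the 9 samples, 1 point per family and sample. tRNA-Glu TTC is the highest family in all 8 serum-based samples, from 81.6 to 122741, the tRNA-Gln families stay under 40, and in StemPRO all 6 lie between 0.167 and 3.64.

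tRNA-Glu TTC was the most abundant family. FBS-1 held 39804 and FBS-2 18205 spike-in normalized counts of it, the SBI-dFBS lots 66845 and 122741, the UC-dFBS samples 27080 (Sigma) and 18929 (Gibco), the UF-dFBS samples 4932 and 81.6, and StemPRO 1.22. Both SBI-dFBS lots lay above both FBS samples, and both UF-dFBS samples lay below them, whereas UC-dFBS fell within the range of FBS. Most of it came from 4 of the 12 loci. tRNA3-GluTTC (chromosome 13, 45492062 to 45492133, minus strand) was the highest of the 79 loci in each serum-based sample, at 67869 and 48965 counts for FBS-1 and FBS-2, 207333 and 162838 for the SBI-dFBS lots, 62251 and 45888 for UC-dFBS, and 96712 and 750 for UF-dFBS. tRNA11-GluTTC (chromosome 15, 26327381 to 26327452, minus strand) followed it closely, at 64527 and 47445 counts in the FBS samples. tRNA20-GluTTC (chromosome 2, 131094701 to 131094772, minus strand) had 29871 and 19777, and tRNA5-GluTTC on chromosome 13, named after its values were seen, had 28343 and 19163. The 4 highest loci held between 64.4% (UF-dFBS-2) and 96.7% (UC-dFBS-2) of the counts of all 79 loci in the serum-based samples.

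Copies with near-equal counts recur in all 3 isotypes. How a read that matched several copies equally well was placed is not given in the sources used here, so counts of such copies are uncertain singly and families are the firmer unit. Within tRNA-Glu TTC, the counts ran in 3 pairs: tRNA3 and tRNA11, tRNA20 and tRNA5 of chromosome 13, and tRNA84 and tRNA134 of chromosome 1. These pairs, like the other groups of copies below, were put together after the counts were seen and are a description. The chromosome 1 pair was much lower, at 1103 and 1023 counts for FBS-1, 165 and 173 for FBS-2, and 5640 and 5638 for SBI-dFBS-1. Only 2 of the 79 loci had counts identical to another in every sample. They are a Lys CTT and a Lys TTT locus, each with 2 counts in StemPRO and 0 in all other samples.

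tRNA-Glu CTC was spread more evenly over its copies. FBS held 2252 (Sigma) and 485 (Gibco) spike-in normalized counts of it, SBI-dFBS 5957 and 10527, UC-dFBS 1128 and 454, UF-dFBS 1488 and 32.6, and StemPRO 1.57. Both SBI-dFBS lots again exceeded both FBS samples, while UF-dFBS-1 lay between FBS-1 and FBS-2. The highest locus was tRNA77-GluCTC on chromosome 6 (28949976 to 28950047, plus strand), which had 2006 (Sigma) and 586 (Gibco) counts among the FBS samples, followed by tRNA59-GluCTC on chromosome 1 (249168447 to 249168518, plus strand) with 1552 and 571. A group of 6 copies, among them tRNA80-GluCTC on chromosome 1 (161417018 to 161417089, minus strand), had 1176 to 1248 counts each in FBS-1, 376 to 449 in FBS-2 and 9936 to 10530 in UF-dFBS-1. The other 4 of the 12 loci were low, from 0 counts up to 287.

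tRNA-Lys was less abundant and split nearly evenly between its anticodons in the Sigma serum and in SBI-dFBS-2. In SBI-dFBS-1, CTT took 63.5% of the tRNA-Lys counts. For tRNA-Lys CTT, FBS-1 held 1224 and FBS-2 33.7 spike-in normalized counts, SBI-dFBS 1753 and 3492, UC-dFBS 578 (Sigma) and 15.8 (Gibco), UF-dFBS 276 and 3.00, and StemPRO 1.93. For tRNA-Lys TTT, FBS-1 held 1062 and FBS-2 71.4, SBI-dFBS 1007 and 2871, UC-dFBS 484 and 79.6, UF-dFBS 352 and 5.29, and StemPRO 3.64. In each of FBS, UC-dFBS and UF-dFBS the Sigma sample was far above the Gibco sample.

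The CTT copies fell into a higher and a lower group. tRNA2-LysCTT on chromosome 15 (79152904 to 79152976, plus strand), tRNA10-LysCTT (chromosome 16, 3241501 to 3241573, plus strand) and tRNA13-LysCTT of chromosome 14 (58706613 to 58706685, minus strand) had 1158, 1040 and 1003 counts in FBS-1. The lower group of 6 copies on chromosomes 1, 5, 6 and 16 had between 425 and 484 each in the same sample. The lots of SBI-dFBS differed in the balance of these groups. In lot 1, a copy of the higher group had 2036 to 2104 counts and a copy of the lower group 1532 to 1693, while in lot 2 these were 3248 to 3468 and 493 to 573. As spike-in normalized sums, the higher group rose from 684 in lot 1 to 2646 in lot 2 and the lower group went from 1057 to 836, with 1 sample per lot and no test.

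The TTT copies formed a group of 6 with 778 to 941 counts each in FBS-1 and 68 to 101 in FBS-2, led by median over the 8 serum-based samples by tRNA62-LysTTT (chromosome 1, 204476158 to 204476230, minus strand), tRNA14-LysTTT (chromosome 11, 59327808 to 59327880, minus strand) and tRNA76-LysTTT (chromosome 6, 28918806 to 28918878, plus strand). The remaining 10 TTT loci had at most 72 counts in any sample.

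tRNA-Gln was close to the limit of detection. The 22 loci together had 250 (Sigma) and 106 (Gibco) counts in FBS, while SBI-dFBS had 127 and 26, UC-dFBS 19 and 9, UF-dFBS 56 and 13, and StemPRO 46. A count of 0 allows up to 3 counts, which is 0.619 spike-in normalized counts in FBS-1 and 0.0543 in UF-dFBS-1 (counting error only). For CTG, FBS held 39.2 and 10.3 spike-in normalized counts, SBI-dFBS 8.29 and 4.50, UC-dFBS 1.99 and 0.733, UF-dFBS 0.272 and 0.250, and StemPRO 0.259. FBS was above each depleted serum without overlap. For TTG, FBS held 12.4 and 3.89, SBI-dFBS 5.75 and 2.38, UC-dFBS 0.918 and 0.586, UF-dFBS 0.742 and 0.291, and StemPRO 0.167, so that SBI-dFBS overlapped FBS and the others did not. The highest CTG loci by the same median were tRNA7-GlnCTG (chromosome 15, 66161400 to 66161471, minus strand) with 32 and 15 counts in FBS, tRNA49-GlnCTG (chromosome 6, 27487308 to 27487379, plus strand) with 28 and 15, and tRNA1-GlnCTG (chromosome 6, 18836402 to 18836473, plus strand) with 22 and 7. The highest TTG loci by median over the 8 serum-based samples, tRNA16-GlnTTG on chromosome 17, tRNA64-GlnTTG and tRNA174-GlnTTG on chromosome 6, had 13, 8 and 12 counts in FBS-1, where tRNA130-GlnTTG, named after its values were seen, had 15. No CTG or TTG locus exceeded 1 spike-in normalized count in UF-dFBS, where 33 of the 79 loci did.

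**Figure D2:**
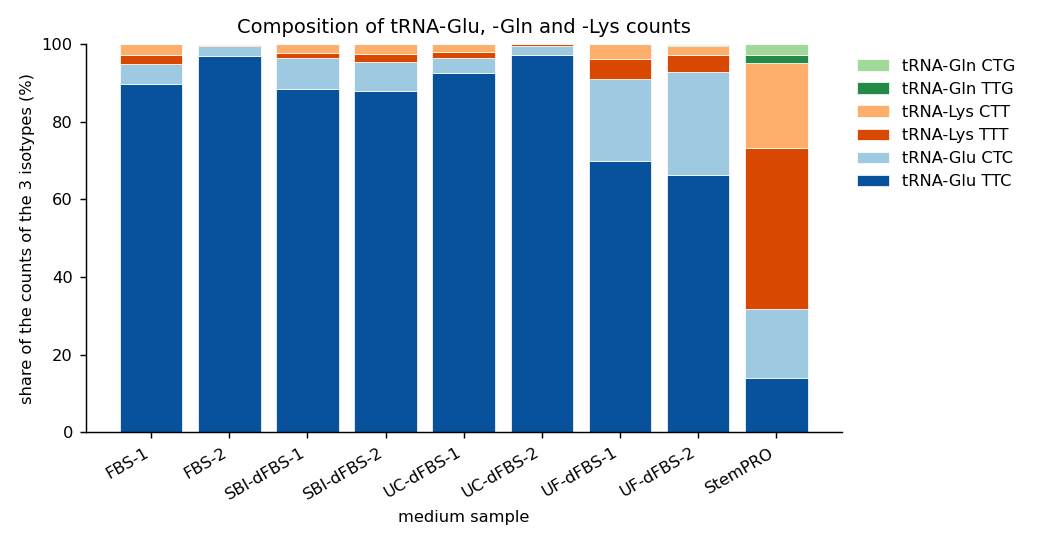
Shares of the 6 anticodon families in the counts of the 3 isotypes (percent, stacked to 100) in each sample. tRNA-Glu TTC takes between 66.3% and 97.2% of the bar in the serum-based samples and 13.9% in StemPRO, where tRNA-Lys takes 63.3%.

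The comparison of anticodons was made as the log2 ratio of CTN to TTN counts within a sample, which needs no scaling. tRNA-Glu was dominated by the TTC anticodon in each of the 8 serum-based samples. tRNA-Gln had more CTG than TTG counts in 6 of 8, on as few as 9 counts, and tRNA-Lys showed no common direction. Over the 4 sera or lots, the ratio averaged -3.62 ± 0.24 (SD, n = 4) for tRNA-Glu, 0.60 ± 0.22 for tRNA-Gln and -0.073 ± 0.947 for tRNA-Lys. The Sigma and Gibco values are means over FBS, UC-dFBS and UF-dFBS, so these SDs do not hold the spread between preparations. For the Sigma serum, tRNA-Glu was at -4.14, -4.58 and -1.73 in these media. In UF-dFBS tRNA-Gln was below 0 in both sera (-1.45 and -0.22). An exact two-sided sign-flip permutation test over these 4 gave p = 0.125 for tRNA-Glu (adjusted over the 3 isotypes, 0.188), and the same values for tRNA-Gln, the smallest that 4 sera allow, and p = 1 for tRNA-Lys. With sums replaced by means over loci, the ratio of tRNA-Gln turned to -0.82, as its CTG genes are more numerous.

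For tRNA-Glu, the excess of TTC over CTC was 17.7-fold and 37.5-fold for FBS-1 and FBS-2, 11.2-fold and 11.7-fold for the SBI-dFBS lots, and 24.0-fold and 41.7-fold for UC-dFBS. In UF-dFBS it was 3.32-fold (Sigma) and 2.5-fold (Gibco). The log2 ratios of UF-dFBS, -1.73 and -1.32, thus lay above all 6 others, the highest of which was -3.49. The share of CTC in tRNA-Glu counts was 23.2% and 28.6% in UF-dFBS and between 2.34% and 8.18% in the other 6. UF-dFBS-2 had 2744 tRNA-Glu counts, and CTC made up 26.5% of its counts on the 79 loci (Wilson 95% confidence interval 25.0% to 28.1%). This difference was noted after the values were seen and is given without a test.

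For tRNA-Gln, CTG took 76.0% and 72.6% of the counts of the FBS samples, 59.1% and 65.4% of SBI-dFBS, 68.4% and 55.6% of UC-dFBS, and 26.8% and 46.2% of UF-dFBS. Both UF-dFBS shares were below the other 6, but on 56 and 13 counts. The Wilson 95% interval reached up to 39.6% for UF-dFBS-1, below those of both FBS samples (63.5% at the lowest), and was 23.2% to 70.9% for UF-dFBS-2, which overlaps that of UC-dFBS-2 (26.7% to 81.1%, 9 counts). For UF-dFBS-2 a difference was therefore not detectable at this depth. The intervals of SBI-dFBS-2 (46.2% to 80.6%) and UC-dFBS-1 (46.0% to 84.6%), like that of UC-dFBS-2, include an even split between CTG and TTG. A lean to CTG beyond counting error is thus not shown in these samples.

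For tRNA-Lys, the share of CTT in the Sigma samples was 53.5% (FBS), 54.4% (UC-dFBS) and 43.9% (UF-dFBS), and in the SBI-dFBS lots 63.5% and 54.9%. The Gibco samples were lower within each medium, at 32.1% (FBS), 16.6% (UC-dFBS) and 36.2% (UF-dFBS). Without UC-dFBS-2 the mean log2 ratio of tRNA-Lys changed sign, to 0.042.

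**Figure D3:**
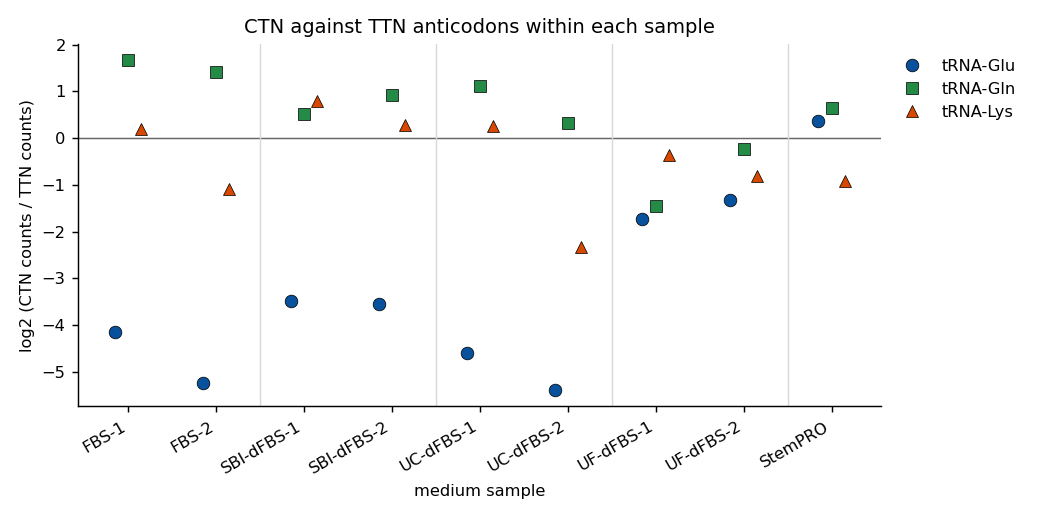
Log2 ratio of CTN to TTN counts for tRNA-Glu (CTC to TTC), tRNA-Gln (CTG to TTG) and tRNA-Lys (CTT to TTT), 1 point per isotype and sample. tRNA-Glu lies between -5.38 and -3.49 in 6 serum-based samples, at -1.73 and -1.32 in UF-dFBS and at 0.36 in StemPRO.

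Whether depletion of EVs lowers these RNAs was asked by comparing each depleted serum with FBS. Fewer vesicles and less RNA per vesicle cannot be told apart in these samples, nor can RNA outside vesicles. In the fit of the 8 serum-based samples without regard to serum, none of the 51 loci that had at least 10 counts in at least 2 samples passed an adjusted p of 0.05 in any medium (edgeR quasi-likelihood test, Benjamini-Hochberg adjustment over 363 loci), and 0.0% of the 363 loci passed in each comparison. At an unadjusted p under 0.05 there were 0 of the 51 for SBI-dFBS, 5 for UC-dFBS and 10 for UF-dFBS, against 4 (1.1%), 12 (3.31%) and 108 (29.8%) of all 363. DESeq2 with spike-in size factors called 0, 0 and 13 of the 51, against 0.0%, 0.0% and 43.8% of the 363. Counts summed by anticodon family gave 0 of 6 families in each comparison, with 0.0% of all 54 tRNA families called. At an unadjusted p under 0.05 there were 0, 2 and 2 of the 6 families, against 0, 3 (5.56%) and 12 (22.2%) of all 54. DESeq2 with spike-in size factors called 0, 2 and 3 of the 6, against 0, 3 (5.56%) and 18 (33.3%) of all 54.

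UC-dFBS and UF-dFBS share their sera with FBS, so a second fit took the serum as a block over these 6 samples. Each serum has a single preparation per medium, and edgeR takes the spread in part from the other features fitted. The p-values of this fit thus do not rest on replicate preparations. With the block, both tRNA-Gln families fell in both depleted sera, and no tRNA-Glu or tRNA-Lys family passed the threshold. In UC-dFBS, the log2 change was -4.08 ± 0.90 (SE) for CTG (adjusted p = 0.00078, edgeR) and -3.26 ± 0.93 for TTG (adjusted p = 0.00923). These were 2 of the 5 families called among all 53 (9.43%), and CTG had the lowest change of the 53. The 5 loci called in UC-dFBS were all of tRNA-Gln CTG (tRNA3 on chromosome 17, tRNA49, tRNA99 and tRNA146 on chromosome 6, and tRNA7 on chromosome 15), out of 43 loci tested here and 8 called among 322 loci (2.48%). Each had 24 to 32 counts in FBS-1, 10 to 15 in FBS-2 and at most 4 in a UC-dFBS or UF-dFBS sample. They thus met the minimum of 10 counts in 2 of the 6 samples through FBS alone, which favoured a call of lower, and these calls are a description. The other 11 CTG loci were too low for this fit. The sums by family, which hold all 16 CTG loci, do not depend on that filter by locus.

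In UF-dFBS with the serum as block, CTG changed by -6.28 ± 0.99 (adjusted p = 1.52e-07, edgeR) and TTG by -3.89 ± 0.90 (adjusted p = 0.000263), among 28 of 53 families called lower (52.8%). Of the comparison families, Asp GTC (-5.31) and Gly TCC (-4.93) were called lower, and the other Gly and the Val families were not. CTG stood at 0.272 and 0.250 spike-in normalized counts in UF-dFBS, about the level of the serum-free StemPRO (0.259). Without the block, the change of CTG was -6.52 ± 2.12 with an adjusted p of 0.0628, the lowest change of 54 families, and without FBS-2 it passed at -7.19 (adjusted p = 0.00873). At the level of loci, 17 of 43 fell in UF-dFBS, a share below that of all loci, of which 213 of 322 fell (66.1%). The median change was -2.65 over the 43 and -3.66 over all 322. These counts and medians include loci that reached 10 counts only in the FBS samples, 5 of the 43 and 20 of the 322 (6.21%). The 5 are the CTG loci named above, which all fell here too. Of the loci tested in the other families, 1 of 9 Glu CTC, 3 of 8 Glu TTC, 6 of 10 Lys CTT, 1 of 10 Lys TTT and 1 of 1 Gln TTG fell. The scale is that of the spike-ins. In the fit without the block, TMM scaling on library totals put the median of all loci in UF-dFBS at -0.57 in place of -3.63. Glu CTC (0.64), Lys CTT (0.0085) and Lys TTT (0.33) then lay above FBS.

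Set against FBS of the same serum, UC-dFBS held 5.07% (Sigma) and 7.10% (Gibco) of the tRNA-Gln CTG and 7.41% and 15.1% of the tRNA-Gln TTG. For tRNA-Glu TTC these were 68.0% and 104%, for tRNA-Glu CTC 50.1% and 93.6%, for tRNA-Lys CTT 47.2% and 47.0%, and for tRNA-Lys TTT 45.6% and 112%. Total tRNA without the 3 isotypes was at 68.1% and 246%. The tRNA-Gln families thus stood far below these in both sera, and none of the tRNA-Gly, tRNA-Val or tRNA-Asp families was called in UC-dFBS. The changes of tRNA-Glu and tRNA-Lys in UC-dFBS fitted with the block were between -1.09 and -0.12 with SE of 1.45 to 2.04. In the fit without the block, all 4 lay above 0 with TMM scaling (0.72 to 1.22).

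UF-dFBS held 12.4% (Sigma) and 0.448% (Gibco) of the tRNA-Glu TTC of its FBS, but 66.1% and 6.73% of the tRNA-Glu CTC. tRNA-Lys CTT was at 22.6% and 8.90%, tRNA-Lys TTT at 33.2% and 7.41%, tRNA-Gln TTG at 5.99% and 7.49%, and tRNA-Gln CTG at 0.692% and 2.42%. Total tRNA without the 3 isotypes was at 15.8% and 7.24%. The sera differed most for tRNA-Glu TTC, by 4.79 on the log2 scale, and least for tRNA-Gln TTG, by 0.32. UF-dFBS-1 and UF-dFBS-2 differ in depth by the totals given above, and what part depth has in this was not tested. In UF-dFBS-2, Lys CTT and Lys TTT stood at 3.00 and 5.29 spike-in normalized counts, against 1.93 and 3.64 in the serum-free StemPRO. Glu CTC (32.6) and Glu TTC (81.6) of UF-dFBS-2 stood far above StemPRO (1.57 and 1.22).

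**Figure D4:**
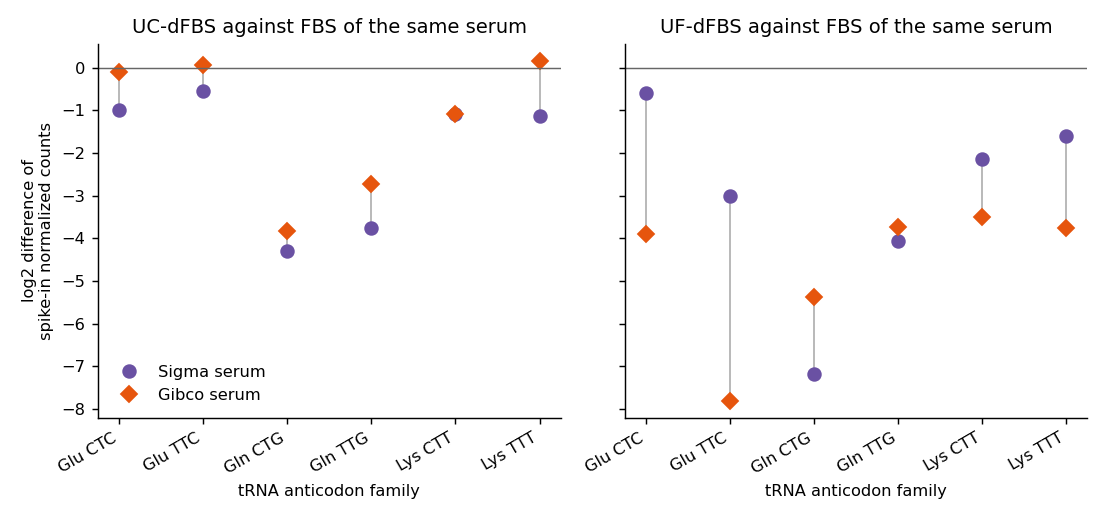
Log2 difference of spike-in normalized counts between depleted serum and FBS of the same serum for each anticodon family, UC-dFBS at left and UF-dFBS at right, 1 point per serum joined by a line. The tRNA-Gln families lie at -2.73 or below in all 4 pairs, and tRNA-Glu TTC shows the widest gap between sera in UF-dFBS (-3.01 and -7.80). TMM scaling was used only in the fit of the 8 serum-based samples without regard to serum, which is not plotted. There the fitted changes of Glu CTC, Lys CTT and Lys TTT in UF-dFBS were above 0.

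Loci within a family did not all follow it in UF-dFBS. The 4 highest tRNA-Glu TTC loci changed by -3.21 to -2.61 on the log2 scale in the Sigma serum and by -8.09 to -7.72 in the Gibco serum. The chromosome 1 pair changed by a like amount in each, tRNA84-GluTTC by -4.73 and -4.47 and tRNA134-GluTTC by -4.55 and -5.04, and both fell in the fit with the block (adjusted p = 0.0043 and 0.0034, edgeR). In tRNA-Glu CTC, 8 loci changed by -1.14 to -0.35 (Sigma) and -4.22 to -3.63 (Gibco), none of which was called. tRNA4-GluCTC on chromosome 13 had 64 and 27 counts for FBS, 70 and 32 for UC-dFBS, and 20 and 1 for UF-dFBS, and it was the only tRNA-Glu CTC locus that fell in UF-dFBS (-5.40 ± 0.98 on the log2 scale, adjusted p = 1.48e-06, edgeR with the block). In tRNA-Lys TTT, the low-count loci tRNA11 (chromosome 11), tRNA23 (chromosome 16) and tRNA143 (chromosome 6) changed by -1.11, -1.25 and -1.46 in the Sigma serum and by -0.17, 0.48 and -0.37 in the Gibco serum, on 4 to 15 counts in the FBS samples. In UF-dFBS-2 these 3 loci were at 0.833, 0.749 and 0.416 spike-in normalized counts, against 0.666, 0.629 and 0.296 in the serum-free StemPRO. What part that level has in their changes was not tested. The 6 higher TTT loci changed by -1.73 to -1.44 and by -5.59 to -4.04. Apart from the 3 top loci of each family, these loci were named after their values were seen.

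In SBI-dFBS, tRNA-Glu and tRNA-Lys stood above FBS and tRNA-Gln below it. The mean of both lots was 3.39 times that of FBS for tRNA-Glu and 3.82 times for tRNA-Lys, and 0.318 times for tRNA-Gln. By family, the fitted log2 changes were 2.59 ± 2.82 (SE) for Glu CTC, 1.71 ± 2.75 for Glu TTC, 2.06 ± 2.67 for Lys CTT, 1.77 ± 2.62 for Lys TTT, -0.99 ± 1.55 for Gln TTG and -1.95 ± 1.73 for Gln CTG. Each SE is near or above its change, and none passed the threshold (adjusted p = 0.964, edgeR). Gln CTG had the lowest and Glu CTC the third highest change of the 54 families, whose median was 1.07. With TMM scaling the 6 families had the same signs. On counts divided by the sample total in place of spike-ins, the total of the 3 isotypes was 0.23 lower on the log2 scale, not 1.77 higher, in SBI-dFBS.

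The sera of the suppliers were compared over FBS, UC-dFBS and UF-dFBS with the medium as a term. Each supplier is a single serum in 3 preparations, so the p-values measure the spread between preparations and not between sera. tRNA-Lys was much higher in the Sigma serum. Lys CTT was 36.3-fold higher in FBS, 36.5-fold in UC-dFBS and 92.2-fold in UF-dFBS, with a fitted log2 difference of 5.62 ± 1.42 (SE, adjusted p = 0.000562, edgeR), and Lys TTT 14.9-fold, 6.09-fold and 66.7-fold, with 4.15 ± 1.37 (adjusted p = 0.00783). In UF-dFBS-2, Lys CTT and Lys TTT stood at 3.00 and 5.29 spike-in normalized counts, against 1.93 and 3.64 in StemPRO. What part that level has in the UF-dFBS gaps was not tested. The other families of the 3 isotypes were not called. Glu TTC was 2.19-fold, 1.43-fold and 60.4-fold higher (2.17 ± 2.03), Glu CTC 4.64-fold, 2.49-fold and 45.6-fold (2.88 ± 1.54), Gln CTG 3.80-fold, 2.71-fold and 1.09-fold (1.22 ± 0.74) and Gln TTG 3.18-fold, 1.57-fold and 2.55-fold (1.28 ± 0.70).

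These differences stand against a general one. Of all 48 tRNA families 30 were called higher in the Sigma serum (62.5%), with a median log2 difference of 3.03, so that both tRNA-Lys families lay above the median and both tRNA-Glu and both tRNA-Gln families below it. Of the comparison families, Val AAC (6.19), Val CAC (6.18) and Val TAC (6.33) were called too and lay above Lys CTT. Gly GCC (4.88) was called and lay above Lys TTT. Gly CCC (2.42), Gly TCC (1.59) and Asp GTC (2.15) were not called. Among loci, 20 of the 35 tested were higher in the Sigma serum and none lower, against 174 of 280 (62.1%) of all loci, with medians of 2.95 and 3.13. None of the 35, but 62 of the 280 (22.1%), reached 10 counts only in the Sigma samples, which favours a higher call in the background. By family the calls were 9 of 10 Lys CTT, 7 of 9 Lys TTT, 3 of 7 Glu TTC and 1 of 9 Glu CTC, and no tRNA-Gln locus had enough counts for this fit. The largest differences were those of tRNA10-LysCTT (6.42 ± 1.31), tRNA2-LysCTT on chromosome 15 (5.93 ± 1.29) and tRNA13-LysCTT on chromosome 14 (5.73 ± 1.25), which had 1040, 1158 and 1003 counts in FBS-1 and 34, 35 and 40 in FBS-2. In UC-dFBS they had 716, 708 and 684 counts (Sigma) and 12, 21 and 20 (Gibco), and in UF-dFBS 2977, 3103 and 2938 against 5, 10 and 11.

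The family calls rest on few samples. Without FBS-1, FBS-2 or UC-dFBS-1 no tRNA-Glu, tRNA-Gln or tRNA-Lys family was called, without UC-dFBS-2 it was 1, and without UF-dFBS-1 or UF-dFBS-2 it was 3. The log2 difference of Lys CTT ranged from 5.19 to 5.86 and that of Lys TTT from 3.25 to 4.97 over these fits. With TMM, the median of all loci was -0.29, 9 of the 35 loci were higher and 1 lower in the Sigma serum (50 and 60 of all 280), Lys CTT remained called at 3.14, Lys TTT was at 1.69 (adjusted p = 0.132, edgeR), and Glu TTC (-0.077), Gln CTG (-1.23) and Gln TTG (-1.29) turned lower.

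**Figure D5:**
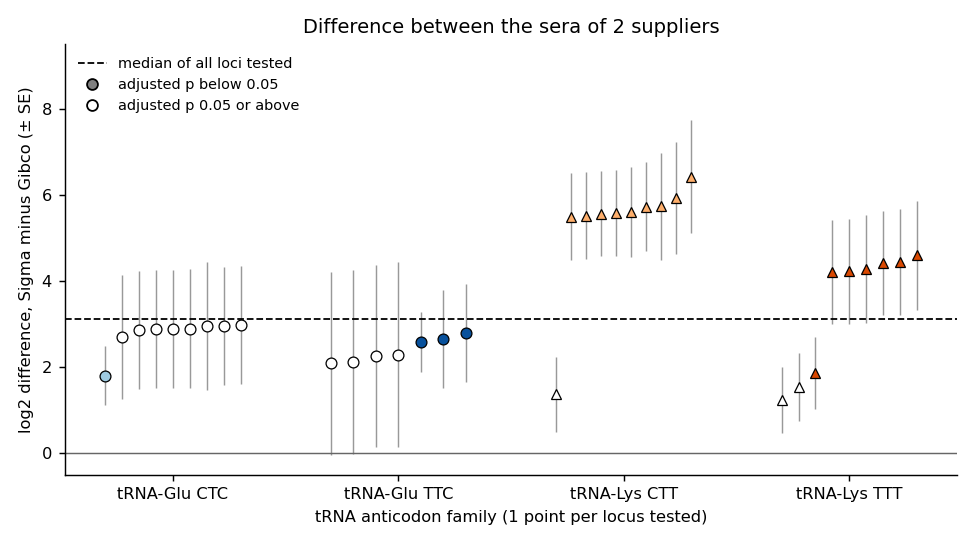
Fitted log2 difference (Sigma minus Gibco serum, ± SE, spike-in scale) of the 35 loci tested, 1 point per locus, filled where the adjusted p was below 0.05. The dashed line is the median of all 280 loci tested, 3.13. Of the 10 Lys CTT loci, 9 lie between 5.49 and 6.42, and the Glu loci lie between 1.80 and 2.98. With TMM scaling the median of all loci is -0.29 and Glu TTC lies below 0.

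StemPRO contained traces of these RNAs in another composition. With 1 sample there is no test. Of 949 counts on the 79 loci, 601 were tRNA-Lys, a share of 63.3% (Wilson 95% confidence interval 60.2% to 66.3%), 302 were tRNA-Glu (31.8%, 28.9% to 34.9%) and 46 tRNA-Gln (4.85%, 3.65% to 6.40%). The loci took 20.7% (19.5% to 21.9%) of all tRNA counts of the sample. Relative to the mean of FBS, StemPRO held 0.465% of the spike-in normalized tRNA-Lys, 1.29% of the tRNA-Gln and 0.00920% of the tRNA-Glu, against 0.00649% for tRNA-Gly, 0.0182% for tRNA-Val and 0.197% for tRNA-Asp. By anticodon, Lys TTT led with 393 counts, before Lys CTT with 208, Glu CTC with 170 and Glu TTC with 132, so that CTC took 56.3% (50.7% to 61.8%) of tRNA-Glu.

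The highest loci in StemPRO were only in part those of serum. tRNA11-LysTTT (chromosome 11, 122430655 to 122430727, plus strand) had 72 counts and tRNA23-LysTTT (chromosome 16, 73512216 to 73512288, minus strand) had 68. In FBS these loci had 11 and 7 counts and 15 and 4 counts, and they are among the low-count loci described above for UF-dFBS. tRNA3-GluTTC and tRNA14-LysTTT followed with 38 counts each. In all, 66 of the 79 loci had a count in StemPRO, among them all 17 Lys CTT loci, and no locus reached 1 spike-in normalized count there.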

How the data were processed

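Small ncRNA from 9 media samples was analysed. Per the labels and methods, the authors trimmed reads with cutadapt 1.11, collapsed reads with the same insert and molecular index, kept reads with a partial index, removed reads on spike-ins, adapters, ribosomal and mitochondrial RNA, and mapped with Bowtie2 2.2.2, first to miRBase and next to the human genome GRCh37. The deposited counts are reads per locus, without normalization. The deposited spike-in normalized signal is the count divided by a factor fitted by the authors to external spike-ins, and this ratio was checked to be constant within each sample. Reads matching several copies, sequences and bovine alignments were not analysed here. The sample records name 3 ml of medium and the methods another volume.

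The 79 members, the comparison lists (tRNA-Gly, tRNA-Val, tRNA-Asp) and the marker miRNAs were chosen with earlier results of these data known. Groups and suppliers came from the labels. In R 4.3.3, edgeR 4.0.16 (quasi-likelihood test, library sizes set to the spike-in factors, no TMM, Benjamini-Hochberg over all features tested, threshold 0.05) was fitted on all loci and on counts summed by anticodon family, for features with at least 10 counts in at least 2 of 8 samples (media) or 3 of 6 (suppliers, medium as a term). Alternatives were DESeq2 1.42.0, TMM, no filter, fewer samples, identical loci counted once, and the serum as replicate block. The fits were tested on simulated data. Shares, ratios and exact permutation tests were computed in python 3.11.15 with scipy 1.17.1. Wilson intervals cover counting error only. P-values measure the spread between these samples, which may be technical in part.

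Same-numbered samples of FBS, UC-dFBS and UF-dFBS come from the same serum, per the methods and the supplier labels. The difference of sample 1 and sample 2 per locus correlated between media (Pearson, across 280 loci, which are not independent) at 0.850 (FBS and UC-dFBS), 0.668 (FBS and UF-dFBS) and 0.601 (UC-dFBS and UF-dFBS). The correlations of these media with SBI-dFBS, of other sera, lay from -0.515 to -0.305.

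Loci were named by rule as the 3 highest by median spike-in normalized count in each anticodon family, the 3 highest in StemPRO with ties, and up to 3 per direction and comparison with the largest change among those called with no overlap. Only the comparison of suppliers gave loci under the last part. Other loci are marked as named after their values were seen. Of the tRNA loci, 59 with no assigned isotype or marked as pseudogenes are not members.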

Additional observations from a re-analysis of the deposited data

Results flagged for a closer look

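For 2 anticodon families the sera moved in opposite directions between FBS and UC-dFBS. The log2 difference of spike-in normalized counts (UC-dFBS minus FBS) of tRNA-Glu TTC was -0.56 in the Sigma serum and 0.056 in the Gibco serum, and that of tRNA-Lys TTT was -1.13 and 0.16. Each value compares 1 sample with 1 sample, and the difference between the sera was not tested. For total tRNA without the 3 isotypes the same difference was -0.55 and 1.30.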

How the results depend on the processing

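Counting identical loci once, fitting only the 2 media compared and other alternatives not named here changed no call and moved no count by over 1.5 times. Calls between media depended on the test. Loci of the 3 isotypes called in UF-dFBS numbered 0 by edgeR, 13 by DESeq2 with spike-in size factors, 7 without a filter and 17 with the serum as replicate block, and in UC-dFBS 5 with the replicate block. Families called were 2 in UC-dFBS by DESeq2 with spike-in size factors and 2 with the block. In UF-dFBS they were 3, 2 and, without a filter, 1. The replicate block changed no other call. SBI-dFBS shares no serum, so it has no such fit. Between suppliers, the 20 loci became 10 with TMM, 10 with DESeq2 and its own size factors and 0 without the medium term, and the 2 families became 1, 4 and 0, or 6 by DESeq2 with spike-in size factors (46 of all 48 families).

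Signs turned with the scaling. With TMM, tRNA-Glu CTC, Glu TTC, Lys CTT and Lys TTT in UC-dFBS were at 0.72, 0.73, 1.22 and 1.08 on the log2 scale, Glu CTC, Lys CTT and Lys TTT in UF-dFBS at 0.64, 0.0085 and 0.33, and Glu TTC, Gln CTG and Gln TTG between suppliers at -0.077, -1.23 and -1.29. With DESeq2 and its own size factors, Glu TTC and Lys TTT in UC-dFBS were at 0.15 and 0.047, Glu CTC, Lys CTT and Lys TTT in UF-dFBS at 1.21, 0.67 and 0.95, and Glu CTC, Glu TTC, Gln CTG and Gln TTG between suppliers at -0.12, -0.71, -1.84 and -1.90. On counts divided by the sample total, the total of the 3 isotypes was at -1.31 in UF-dFBS (mean of both sera) and -0.23 in SBI-dFBS. The ratio of CTG to TTG per locus was -0.82, and with the 8 samples as units the ratio of CTC to TTC was -3.68 (p = 0.0078, exact permutation test), which treats samples of one serum as independent (p = 0.125 over the 4 sera or lots). The cause was not tested, but per locus the larger number of CTG loci enters by construction.

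Leaving out each sample in turn gave 6 to 27 loci (6 without FBS-1, 7 without FBS-2) and 0 to 3 families between suppliers, 0 to 1 families in UF-dFBS (1 without FBS-2), and a mean ratio of CTT to TTT from -0.36 to 0.042 (0.042 without UC-dFBS-2). The log2 changes in UC-dFBS ranged from -1.59 to 0.71 (Glu CTC), -0.79 to 0.34 (Glu TTC), -5.31 to 3.14 (Lys CTT) and -2.83 to 1.98 (Lys TTT), and in UF-dFBS from -5.39 to 0.65 (Glu CTC), -7.71 to 2.05 (Lys CTT) and -6.74 to 1.33 (Lys TTT), the upper ends without FBS-1. Glu CTC in UF-dFBS was at 0.12 without UF-dFBS-2. Glu TTC in UF-dFBS ranged from -8.47 (without UF-dFBS-1) to -2.56 (without UF-dFBS-2). Gln CTG ranged from -5.06 (without UC-dFBS-1) to -2.92 (without FBS-1) in UC-dFBS and from -7.19 (without FBS-2) to -5.26 (without FBS-1) in UF-dFBS. Gln TTG ranged from -4.03 (without FBS-2) to -2.36 (without FBS-1) in UC-dFBS and from -4.74 (without UF-dFBS-1) to -2.88 (without FBS-1) in UF-dFBS.

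Over all alternatives, the counts of calls, shares, ratios and totals stayed on their side of the threshold or within the spread in 153 cases. They moved further in 25, changed sign in 2 and newly passed the threshold in 1. The log2 changes of single families and named loci stayed the same in 174 cases, changed sign in 27, and were stronger in 17 and weaker in 19. Depth limits tRNA-Gln, with 9 to 250 counts a sample, and every locus in UF-dFBS-2 and StemPRO.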
